A study of Mus musculus with 6 samples.

Results

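The collagen genes are the 44 genes, of 53801 in the count table, whose symbol has the form of a collagen α chain (Col, a type number, the letter a and a chain number). All 44 passed the minimum of 10 counts summed over the embryos that decided which genes were tested. RNA-seq was performed on the whole brain of 6 C57BL/6 mouse embryos at stage E16.5, 3 knockout embryos (Bahd1-KO, genotype Bahd1-/-) and 3 wild-type embryos (Bahd1-WT), to ask whether loss of BAHD1, a scaffold protein of repressive chromatin complexes, altered gene expression before birth. The embryos came from crosses of Bahd1+/- parents and the deletion was not restricted to a cell type, so that any tissue around the brain lacked BAHD1 as well. The chains were sorted by the tissue they are best known from into 12 of meninges and connective tissue, 10 of vessels and basement membrane, 9 of cartilage and bone, 5 of skin and epithelium and 8 transmembrane, neural or other chains.

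The libraries held 61.7 to 91.8 counts in units of 1e+06. Bahd1 itself had 2, 10 and 6 counts in the knockout embryos (replicates 1, 2 and 3) and 1971, 3102 and 3470 in the wild-type embryos, so each library matched its genotype label (log2 fold change -8.40 ± 0.61, edgeR adjusted p = 0.0462). The library of Bahd1-KO replicate 3 stood apart from the other 5 in its make-up. Genes of RNA without a long poly(A) tail took 35445779 of its 78941526 counts. They summed to 6.57e+05 counts per 1e+06 (CPM, scaled with TMM factors) there and to 2308 to 5571 elsewhere. Scaled CPM are not shares, since those of all genes tested summed to 1.46e+06 in this library. Its levels moved with the scaling as given beside the results. Of 8 neuron markers, 5 lay below every other embryo and 1 above, where 36.0% and 38.1% of all genes did so. Dcx, a microtubule-associated protein of young neurons, was among the 5, at 33.0 CPM against 1864 to 3713. Snap25 was the 1 above, at 910 CPM against 154 to 285. All 8 lung markers lay above every other embryo, with a sum of 1820 against 0.763 to 13.1 CPM. The marker sums of cartilage (124 against 3.75 to 6.11 CPM), bone (84.2 against 14.6 to 18.3), skeletal muscle (94.0 against 3.16 to 14.0) and endothelium (946 against 255 to 325) were also higher in this embryo. Results that rest on this library are given with and without it.

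Collagens are the main structural proteins of the extracellular matrix. Each chain carries long runs of a repeat that begins with glycine, the only residue small enough to face the inside of the triple helix, and the chains assemble as homotrimers or as heterotrimers of fixed partners. In the developing brain, fibrillar collagens are made mainly by meningeal and perivascular fibroblasts and type IV collagens line vessels and the pial surface, while a few transmembrane collagens are made by neurons. In a whole-brain sample the collagen transcripts thus come largely from thin sheets and vessels, and fewer cells of a type cannot be told apart from less RNA per cell.

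The repeat could be read in the coding sequences of the 44 genes (GENCODE M21, GRCm38). Glycine codons (GGN) made up 9.07 to 31.2% of the codons, with a median of 24.2%. The longest unbroken run of glycine-led triplets was 344 triplets in Col3a1, 339 in Col1a2, Col2a1 and Col5a2 and 338 in Col1a1, Col5a1, Col11a1 and Col11a2, against 66 in Col4a2, 40 in Col4a1 and 23 in Col26a1. The first 30 codons of the longest run are shown for 4 chains, because these chains share the repeat but differ in the bases that spell it. Capitals mark the glycine codon that opens each triplet. A glycine codon elsewhere in a triplet, such as ggt in Col11a1, is in lower case.
Col2a1: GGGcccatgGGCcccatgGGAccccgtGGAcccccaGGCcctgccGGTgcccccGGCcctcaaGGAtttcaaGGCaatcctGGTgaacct
Col11a1: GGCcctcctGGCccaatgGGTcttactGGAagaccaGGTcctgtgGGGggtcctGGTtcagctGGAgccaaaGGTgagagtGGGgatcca
Col4a2: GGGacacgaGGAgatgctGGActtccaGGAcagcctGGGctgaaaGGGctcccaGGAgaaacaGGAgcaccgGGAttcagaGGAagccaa
Col25a1: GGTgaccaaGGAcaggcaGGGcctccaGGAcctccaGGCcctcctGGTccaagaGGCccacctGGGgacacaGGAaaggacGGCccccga
The stretch begins at codon 201 in Col2a1, 527 in Col11a1, 777 in Col4a2 and 189 in Col25a1. It holds 70.0% GC in Col2a1, 68.9% in Col25a1, 62.2% in Col11a1 and 60.0% in Col4a2, an order that differs from that of the whole transcripts (62.2%, 45.9%, 48% and 60.6% GC).

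Levels between genes were compared per length, as scaled CPM per kb of exon. In the Bahd1-WT brains the highest were Col4a1 at 26.1 ± 8.20 (SD, n = 3) and Col4a2 at 19.2 ± 7.11, the chains of the common type IV network of basement membranes. Col3a1 followed at 13.9 ± 2.60, Col1a2 at 7.97 ± 1.51, Col1a1 at 7.48 ± 2.5 and Col6a1 at 5.50 ± 1.55. Neighbours in this order differed by less than the sum of their SDs except for Col3a1 and Col1a2. At the other end, Col10a1, the collagen of hypertrophic cartilage, stood at 0.0271 ± 0.00525 and rested on 7 to 12 counts per embryo. The collagen genes together took 0.0838% of all counts in Bahd1-KO replicate 1 (95% Wilson interval 0.0831 to 0.0845%), 0.127% in replicate 2 (0.127 to 0.128%) and 0.302% in replicate 3 (0.301 to 0.303%), against 0.0841% (0.0835 to 0.0847%), 0.129% (0.128 to 0.129%) and 0.137% (0.137 to 0.138%) in the Bahd1-WT embryos. These intervals cover counting error only. Both replicates 1 had the lowest shares, whatever their genotype, and Bahd1-KO replicate 3 had the highest.

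**Figure D1:**
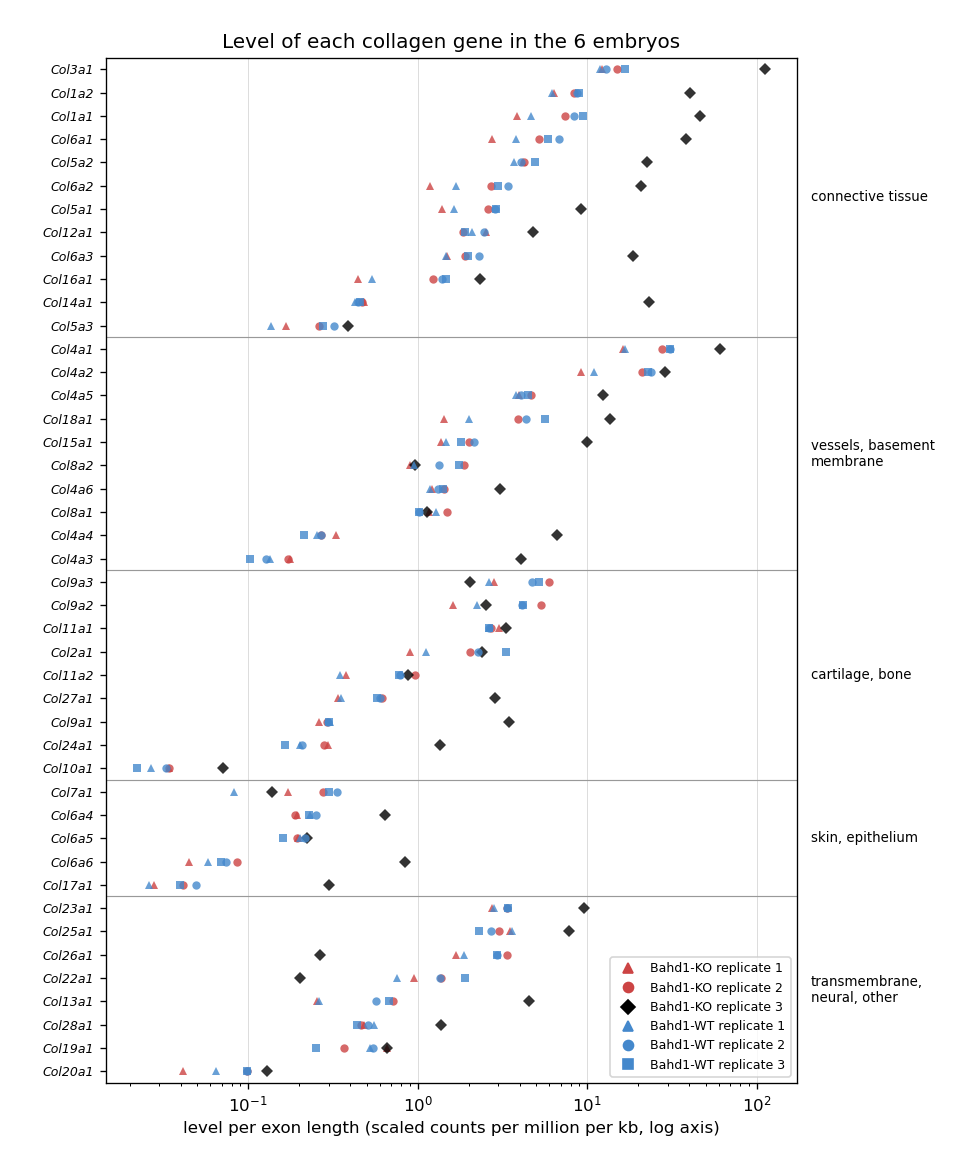
Level of each of the 44 collagen genes (scaled CPM per kb of exon, log axis) in the 6 embryos, 1 symbol per embryo, grouped by tissue type and ordered by the mean of the Bahd1-WT embryos. Bahd1-KO replicate 3 (black diamonds) lies above all other embryos for 34 genes, and both replicates 1 (triangles) lie below the 3 remaining embryos for 29.

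For every tissue type the proportion in Bahd1-KO replicate 3 lay outside the range of the other 5 embryos. Of the summed level per length, connective tissue collagens made up 34.8 to 39.5% in these 5 and 64.5% in Bahd1-KO replicate 3. The vessel and basement membrane collagens made up 38.5 to 45.6% against 26.8%, and the cartilage and bone collagens 10.1 to 12.4% against 3.60%. Skin and epithelial collagens stayed between 0.408 and 0.680% in all 6. Col4a1 was the most abundant collagen in 5 embryos and Col3a1 in Bahd1-KO replicate 3, where it alone made up 21.4%. Within a library these proportions do not depend on the scaling factor.

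**Figure D2:**
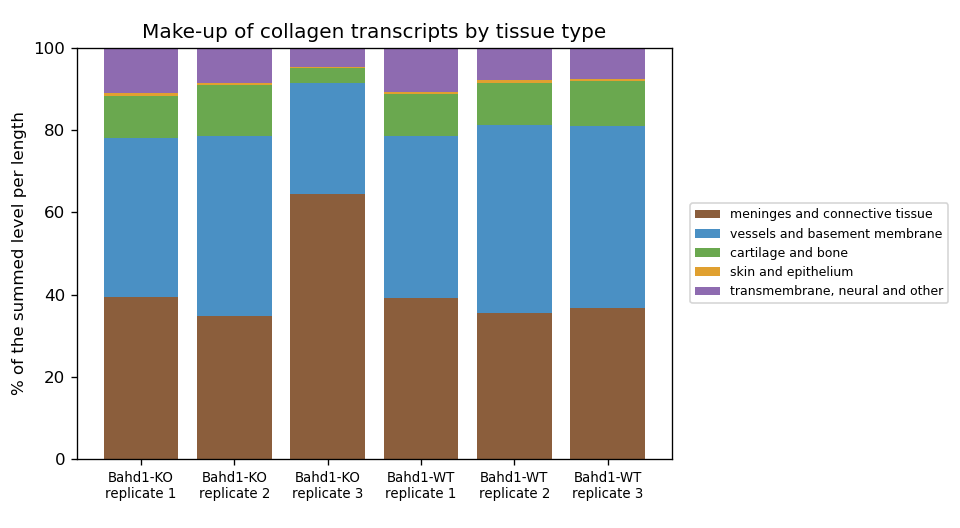
Share of each tissue type in the summed level per length of the 44 collagen genes (stacked bars, percent) in each embryo. Connective tissue collagens take 64.5% in Bahd1-KO replicate 3 and 34.8 to 39.5% in the other 5 embryos.

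No collagen gene passed the adjusted threshold of 0.05 between genotypes. In the edgeR quasi-likelihood test, 0 of 44 were called, with adjusted p-values of 0.696 to 0.984, where 0.00404% of the 24739 genes tested were called, namely Bahd1. At an unadjusted p under 0.05, 4 collagens were higher in Bahd1-KO (Col4a3, Col14a1, Col4a4 and Col24a1) and 0 were lower, against 4.51% and 0.166% of all genes. DESeq2 called 0 (background 0.0334%) but gave no p-value for 6 collagens. These were Col3a1, Col6a3, Col9a1 and, of the 4 above, Col4a3, Col4a4 and Col14a1, so DESeq2 did not test them. Of the rest, 3 were higher and 0 lower at an unadjusted p under 0.05 (4.97% and 0.150% of all genes). The estimates leaned to the Bahd1-KO side, with 37 of 44 above 0 (background 53.8%) and a median log2 fold change of 0.69 against 0.06 over all genes. Scaled by total counts, 30 were above 0 and 14 below. Without Bahd1-KO replicate 3, 0 of 44 were called (background 0.0171%) and 0 had an unadjusted p under 0.05 (1.09% of all genes did so on the higher side and 0.386% on the lower). The estimates then lay on the other side, with 16 above 0 and 28 below (49.2% of all genes were above 0) and a median of -0.06 against -0.01 over all genes.

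Type by type, each median was also lower without that embryo, and 3 of the 5 then lay below 0. With all embryos the median log2 fold change was 1.33 for connective tissue, 0.61 for vessels and basement membrane, 0.21 for cartilage and bone, 0.53 for skin and epithelium and 0.49 for the transmembrane, neural and other chains. Without Bahd1-KO replicate 3 these were -0.19, 0.03, 0.07, -0.10 and -0.06. Of the 12 connective tissue chains, 12 were above 0 with all embryos and 2 without that embryo.

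**Figure D3:**
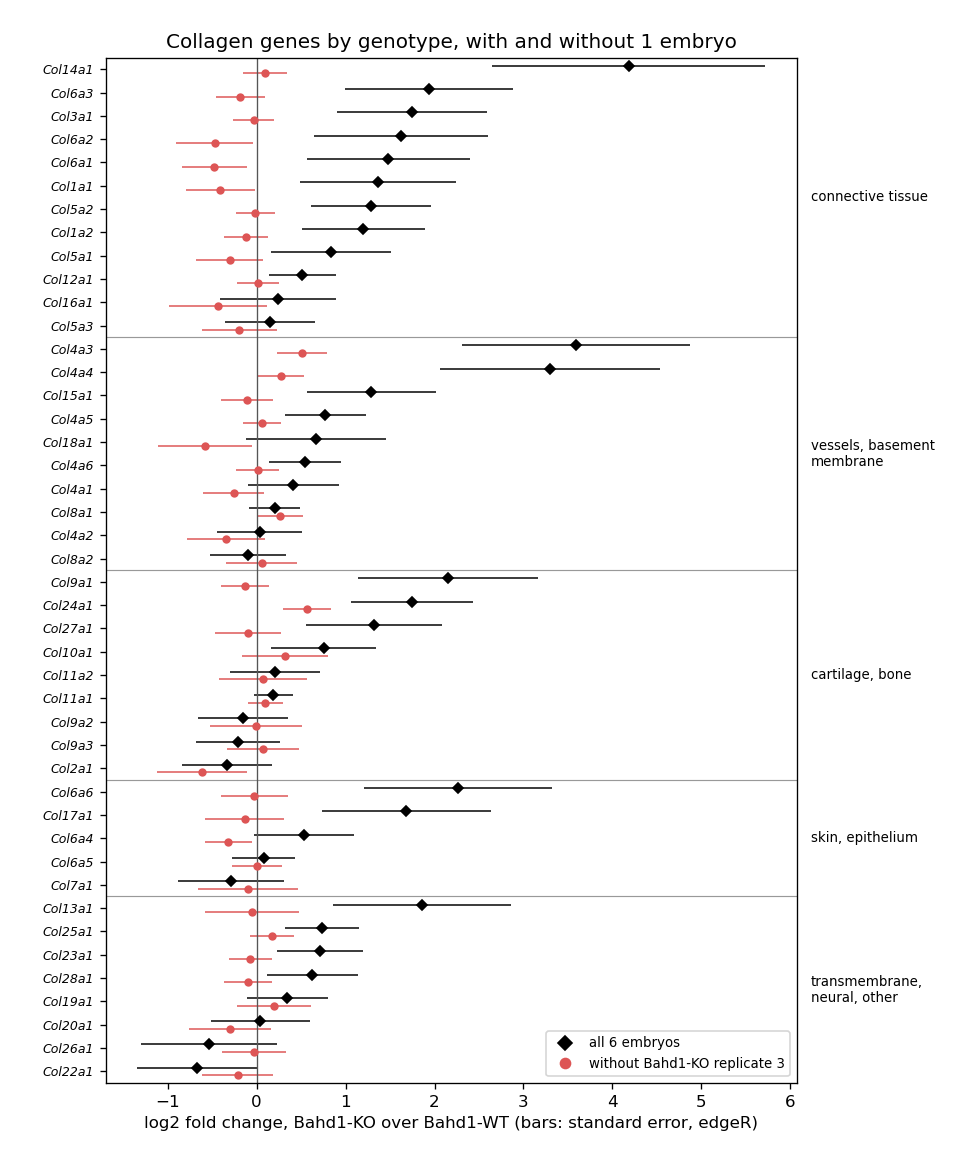
The log2 fold change of each collagen gene, Bahd1-KO over Bahd1-WT, with a standard error derived from the edgeR test. Values are for all 6 embryos (black diamonds) and without Bahd1-KO replicate 3 (red circles), grouped by tissue type. With all embryos 37 of 44 estimates lie above 0 and without that embryo 16 do.

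Values of the genotypes did not overlap for 5 collagens, all higher in Bahd1-KO (Col14a1, Col4a3, Col24a1, Col10a1 and Col11a1), against 4.47% of all genes in that direction, and for 0 in the other (2.24%). With total counts in place of TMM factors Col11a1 overlapped and Col4a4 did not, which again gave 5 higher (background 3.97%) and 0 lower (2.09%). A gene without overlap over all 6 embryos cannot overlap once 1 is left out, so leaving out Bahd1-KO replicate 3 did not test these. With TMM factors and without that embryo, the first 5 were the only collagens higher without overlap (6.33% of all genes). Col9a1 and Col6a4 then lay lower in Bahd1-KO without overlap (4.35% of all genes). Col24a1, a fibrillar chain of developing bone, had levels of 0.294, 0.281 and 1.36 CPM per kb in the knockout embryos (replicates 1, 2 and 3) and of 0.201, 0.208 and 0.166 in the wild-type embryos. Its log2 fold change was 1.75 ± 0.68 (SE) with all embryos and 0.57 ± 0.27 without Bahd1-KO replicate 3, with edgeR adjusted p-values of 0.696 and 0.981. Col24a1 thus had the largest estimate of the 44 without that embryo, with an unadjusted p of 0.0681 in edgeR. Col10a1 had 7, 9 and 12 counts in knockout and 8, 9 and 7 in wild-type embryos, so few that counting error exceeds the gap between genotypes.

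Among the connective tissue chains, all 12 were highest in Bahd1-KO replicate 3, by a median of 6.06 times the mean of the other 5 embryos and by 1.67 to 50.9 times across the chains (3.85 times at the median when scaled by total counts). Over all 44 collagens 34 lay above every other embryo there (background 38.1%) and 3 below (36.0%). With total counts in place of TMM factors these were 28 (background 25.9%) and 7 (52.7%), and 10 of the 12 connective tissue chains were highest there, Col16a1 and Col5a3 falling within the range of the others. Col3a1, the fibrillar collagen of soft tissue and vessel walls, had 12.2, 15 and 113 CPM per kb in knockout and 11.9, 12.9 and 16.8 in wild-type embryos, listed here and below by replicate 1, 2 and 3. Its log2 fold change was 1.75 ± 0.84 with all embryos and -0.03 ± 0.23 without Bahd1-KO replicate 3. The 5 remaining embryos of both genotypes overlapped, and the estimate rested on that 1 library.

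Both chains of type I collagen, the fibre of bone, tendon and dermis, showed the same arrangement. Col1a1 had 3.83, 7.45 and 46.5 CPM per kb in knockout and 4.66, 8.35 and 9.43 in wild-type embryos. Col1a2 had 6.34, 8.40 and 40.2 in knockout and 6.24, 8.69 and 9.0 in wild-type embryos. Without Bahd1-KO replicate 3 their log2 fold changes were -0.41 ± 0.39 and -0.12 ± 0.24, and each replicate 1 was the lowest of its genotype for both chains.

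Col14a1, a chain that binds the surface of collagen fibrils, had the largest excess of all, 50.9 times. Its levels were 0.485, 0.468 and 23.3 CPM per kb in knockout and 0.430, 0.443 and 0.457 in wild-type embryos. The 5 embryos other than Bahd1-KO replicate 3 kept within a narrow band, with the Bahd1-KO pair at its upper end, and the log2 fold change was 4.18 ± 1.54 with all embryos and 0.09 ± 0.25 without that embryo.

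The 8 other connective tissue chains had ratios of 1.67 (Col5a3) to 10.1 (Col6a3) in Bahd1-KO replicate 3. They were the type V chains Col5a1, Col5a2 and Col5a3, which seed fibrils, the type VI chains Col6a1, Col6a2 and Col6a3, which form beaded filaments around cells, and the fibril-associated Col12a1 and Col16a1. Without that embryo their log2 fold changes lay between -0.47 (Col6a1) and 0.02 (Col12a1). The 10 meningeal markers did not move as one in that embryo, 4 lying above and 5 below every other (38.1% and 36.0% of all genes). They summed to 265 CPM there against 163 to 176 elsewhere. Pdgfra, the receptor tyrosine kinase of fibroblasts and oligodendrocyte precursors, carried this sum with 215 against 60.2 to 86.6 CPM, and the 9 other markers summed to 50.4 against 76.2 to 103. Their part in the connective tissue values was not tested.

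Among the vessel and basement membrane chains, Col4a1 had 16.2, 27.5 and 60.5 CPM per kb in knockout and 16.6, 30.9 and 30.8 in wild-type embryos. Col4a2 had 9.27, 21 and 28.7 in knockout and 11, 23.8 and 22.9 in wild-type embryos. For both chains the replicates 1 were low in both genotypes, and the log2 fold change was 0.41 ± 0.51 for Col4a1 and 0.03 ± 0.47 for Col4a2 with all embryos. Col4a2 was 1.63 times the mean of the others in Bahd1-KO replicate 3 but 1.03 times when scaled by total counts.

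Col4a3 and Col4a4, chains of the mature type IV network of kidney and lung basement membranes, were scarce in 5 embryos. Col4a3 had 0.176, 0.172 and 4.05 CPM per kb in knockout and 0.134, 0.127 and 0.102 in wild-type embryos. Col4a4 had 0.331, 0.270 and 6.68 in knockout and 0.257, 0.270 and 0.213 in wild-type embryos. Both stood far above every other embryo in Bahd1-KO replicate 3, by 28.5 and 24.9 times, where the lung markers were also high, and the part of the latter was not tested. Their log2 fold changes were 3.59 ± 1.28 and 3.30 ± 1.24 with all embryos and 0.51 ± 0.28 and 0.27 ± 0.27 without it.

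Col4a3 and Col4a4 assemble with Col4a5, which also assembles with Col4a6. Col4a5 had 3.95, 4.70 and 12.5 CPM per kb in knockout and 3.79, 4.09 and 4.48 in wild-type embryos. Col4a6 had 1.22, 1.43 and 3.06 in knockout and 1.18, 1.32 and 1.41 in wild-type embryos. Outside Bahd1-KO replicate 3 both genes overlapped between genotypes, with log2 fold changes of 0.06 ± 0.22 and 0.01 ± 0.24.

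The type IV genes lie in head-to-head pairs that are transcribed away from a shared start region. Col4a1 (chromosome 8, 11198423 to 11312826, minus strand) and Col4a2 (11312805 to 11449287, plus strand) share 22 bases at their starts, Col4a4 (chromosome 1, 82448423 to 82586849, minus strand) and Col4a3 (82586921 to 82722059, plus strand) lie 71 bases apart, and Col4a6 and Col4a5 on chromosome X lie 1308 bases apart (GRCm38). The shared or intervening bases are printed from the RefSeq promoter windows of GRCm38.p6, with CpG dinucleotides in capitals, because both genes of a pair read outwards from them.
Col4a2 with Col4a1, chr8:11312805-11312826, plus strand: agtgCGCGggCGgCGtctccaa
Col4a4 with Col4a3, chr1:82586850-82586920, minus strand: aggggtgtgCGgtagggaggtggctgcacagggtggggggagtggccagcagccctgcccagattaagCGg
The stretches hold 4 and 2 CpG dinucleotides. The windows of 300 bases around the starts held 33 CpG at 73.7% GC for Col4a2 and 14 at 63.3% GC for Col4a4, against a median of 52.7% GC over all 32851 windows. The GC box GGGCGG, read on both strands, occurred 3 times in the Col4a2 window and 0 times in that of Col4a4. It occurred in 23 of the 38 windows found for 35 collagen genes (60.5%) and in 35.7% of all windows. CCAAT occurred in 34.2% of the collagen windows and 37.4% of all, and TATAAA in 13.2% and 13.6%. The excess in Bahd1-KO replicate 3 differed between these pairs. The ratios to the other embryos were 28.5 and 24.9 for Col4a3 and Col4a4, 2.48 and 1.63 for Col4a1 and Col4a2, and 2.96 and 2.33 for Col4a5 and Col4a6.

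Neighbouring collagen genes in other arrangements were alike in some places and not in others. Col9a1 and Col19a1, tail to tail on chromosome 1 with 9205 bases between them, had ratios of 11.8 and 1.39. Col6a6 and Col6a5, 27917 bases apart on the same strand of chromosome 9, had ratios of 12.6 and 1.14. By contrast Col3a1 and Col5a2, tail to tail and 24614 bases apart on chromosome 1, had 8.17 and 5.33, and Col6a2 and Col6a1 on chromosome 10 had 8.75 and 7.80. Among the 8 neighbouring pairs within 300 kb, the ratios thus ran from nearly equal to far apart.

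The vessel chains Col8a1 and Col8a2, short network-forming collagens of vessel wall and cornea, were among the few that were not high in Bahd1-KO replicate 3, with ratios of 0.954 and 0.711. Col8a1 had 1.17, 1.5 and 1.14 CPM per kb in knockout and 1.28, 1.01 and 1.03 in wild-type embryos. Col8a2 had 0.908, 1.89 and 0.970 in knockout and 0.949, 1.34 and 1.75 in wild-type embryos. The genotypes overlapped for both. Col15a1 and Col18a1, the basement membrane collagens with an endostatin-like end, had ratios of 5.62 and 3.95 in that embryo and log2 fold changes of -0.11 ± 0.29 and -0.58 ± 0.53 without it. Endothelial markers were above every other embryo there for 9 of 10 (38.1% of all genes). The exception was Cldn5, at 9.25 CPM against 8.09 to 33.1. Of 10 pericyte and vascular smooth muscle markers, 6 were above every other embryo and 1 below (36.0% of all genes). Their sum was 611 against 310 to 345 CPM, with ratios from 0.265 (Vtn) to 37.7 (Myh11). The part of either list was not tested.

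The cartilage and bone chains were divided. Col9a1, a chain of the type IX collagen on cartilage fibrils, had 0.262, 0.292 and 3.45 CPM per kb in knockout and 0.305, 0.295 and 0.301 in wild-type embryos. Its partners did not follow it. Col9a2 had 1.62, 5.38 and 2.53 in knockout and 2.25, 4.15 and 4.19 in wild-type embryos. Col9a3 had 2.83, 5.98 and 2.04 in knockout and 2.64, 4.73 and 5.20 in wild-type embryos. In Bahd1-KO replicate 3, Col9a1 was thus 11.8 times the mean of the other 5 and Col9a3 0.477 times, below every other embryo. There, 9 of 9 cartilage markers that passed the count minimum were above every other embryo (38.1% of all genes).

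Col2a1, the main fibre of cartilage, had 0.900, 2.04 and 2.41 CPM per kb in knockout and 1.12, 2.29 and 3.35 in wild-type embryos. Col11a1, which with Col11a2 and Col2a1 forms the core of the cartilage fibril, had 3.01, 2.70 and 3.33 in knockout and 2.65, 2.64 and 2.64 in wild-type embryos. Col11a2 had 0.377, 0.961 and 0.874 in knockout and 0.346, 0.792 and 0.779 in wild-type embryos. Col11a1 was the steadiest of the 3, with 2.64 ± 0.00417 (SD, n = 3) in Bahd1-WT and a log2 fold change of 0.19 ± 0.22, or 0.10 ± 0.20 without Bahd1-KO replicate 3. The position of that embryo for these 3 chains turned with the scaling, from 1.22 to 0.773 times the others for Col11a1, from 1.24 to 0.780 for Col2a1 and from 1.34 to 0.843 for Col11a2 when total counts replaced TMM factors. The same turn was seen for Col6a5, from 1.14 to 0.725, and for Col19a1, from 1.39 to 0.888. Col27a1, a fibrillar chain of cartilage, had a ratio of 5.75 and a log2 fold change of -0.10 ± 0.37 without that embryo.

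The skin and epithelial chains were low in all brains. Col7a1, the anchoring fibril beneath the epidermis, had 0.172, 0.276 and 0.139 CPM per kb in knockout and 0.0822, 0.334 and 0.302 in wild-type embryos. The type VI chains Col6a4 and Col6a5 had 0.195, 0.189 and 0.646 and 0.198, 0.194 and 0.222 in knockout embryos, against 0.233, 0.250 and 0.229 and 0.203, 0.217 and 0.161 in wild-type embryos. Col6a6, the third of this group, had 0.0450, 0.0866 and 0.839 in knockout and 0.0581, 0.0742 and 0.0691 in wild-type embryos. Col6a4 and Col6a6 were high in Bahd1-KO replicate 3 alone, whereas Col6a5 was barely above the others and Col7a1 was within their range. Col17a1, a transmembrane chain of the hemidesmosome, rested on 11 to 98 counts per embryo and had a ratio of 8.21. Skin markers summed to 29.9 CPM in that embryo and to 14.3 to 16 in the others. Of the 10, 4 were above every other embryo and 2 below, near the 38.1% and 36.0% of all genes. Krt15, a keratin of basal epithelial cells, carried this sum with 20.3 against 0.104 to 0.168 CPM, and the 9 others summed to 9.62 against 14.1 to 15.9, with Krt1 and Lor, of the outer epidermis, below every other embryo at 0.0834 and 0.182 times their mean.

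The transmembrane, neural and other chains held the collagens with the lowest values in Bahd1-KO replicate 3. Col26a1, a short secreted chain, had 1.69, 3.38 and 0.265 CPM per kb in knockout and 1.88, 2.93 and 2.95 in wild-type embryos. Col22a1, a chain of tissue junctions, had 0.952, 1.37 and 0.203 in knockout and 0.760, 1.36 and 1.89 in wild-type embryos. Their ratios of 0.103 and 0.161 were the lowest of the 44, and with Col9a3 they were the 3 below every other embryo. The genotypes overlapped without that embryo, with log2 fold changes of -0.03 ± 0.36 and -0.21 ± 0.40.

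The transmembrane chains Col25a1 and Col23a1 were not among those that were low. Col25a1, which is needed for motor axons to enter muscle, had 3.51, 3.04 and 7.86 CPM per kb in knockout and 3.62, 2.72 and 2.30 in wild-type embryos. Col23a1 had 2.74, 3.39 and 9.56 in knockout and 2.82, 3.35 and 3.41 in wild-type embryos. Both were above every other embryo in Bahd1-KO replicate 3. There, 5 of 8 neuron markers were below every other and 1 was above (36.0% and 38.1% of all genes). Col13a1, a transmembrane chain of the neuromuscular junction, had a ratio of 9.13, Col28a1 of 2.81, Col20a1 of 1.61 and Col19a1 of 1.39. Their log2 fold changes without that embryo lay between -0.30 (Col20a1) and 0.20 (Col19a1).

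Since partner chains are assembled in fixed numbers, the ratio of their levels was read within each embryo, where the scaling cancels. The ratio of Col4a3 to Col4a4 was 0.471 to 0.638 in 5 embryos and 0.607 in Bahd1-KO replicate 3, so this ratio stayed in its range while both levels did not. The ratio of Col4a5 to Col4a6 was 3.10 to 3.29 in the 5 and 4.07 in that embryo, and the ratio of Col4a1 to Col4a2 was 1.30 to 1.75 and 2.11. The largest departure was that of Col9a1 to Col9a2, at 0.0543 to 0.162 in the 5 and 1.36 in Bahd1-KO replicate 3. The ratio of Col1a1 to Col1a2 was 0.605 to 1.05 and 1.16. Of 11 partner ratios, some of which share a chain, 6 fell outside the range of the other embryos in this library. Among single genes, 38.1% of all tested lay above every other embryo there and 36.0% below. No share over other pairs of genes was taken, so the 6 are a description only. The ratio of Col11a1 to Col11a2 was 7.98 and 7.65 in the replicates 1 of Bahd1-KO and Bahd1-WT, and 2.81 to 3.39 in the other 3.

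**Figure D4:**
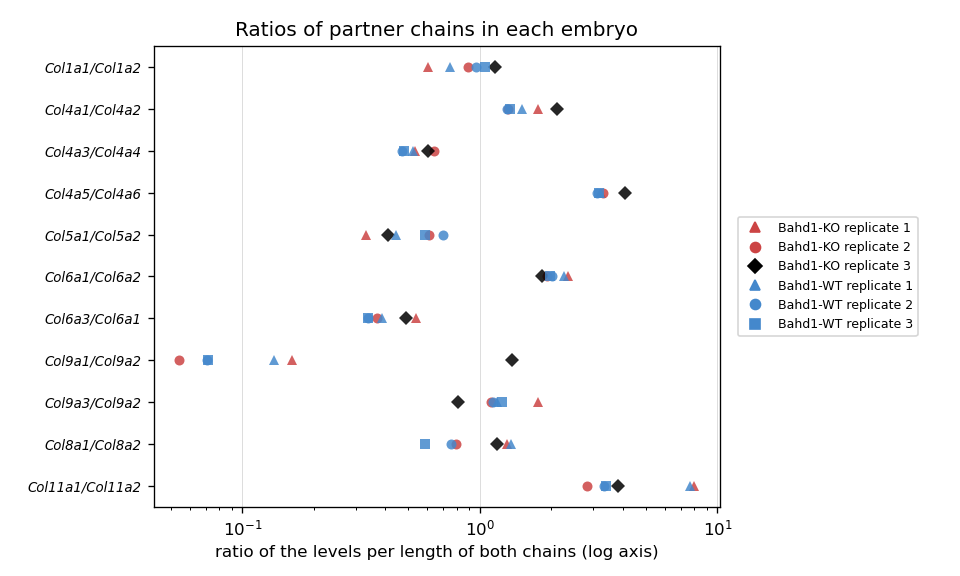
Ratio of the levels per length of 2 partner chains (log axis) in each embryo, 1 symbol per embryo. The ratio of Col9a1 to Col9a2 is 1.36 in Bahd1-KO replicate 3 (black diamond) and 0.0543 to 0.162 in the others, and that of Col11a1 to Col11a2 is 7.98 and 7.65 in both replicates 1 (triangles).

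Among the 5 embryos outside Bahd1-KO replicate 3, the libraries numbered 1 differed from the rest in both genotypes, a pattern singled out after the values were seen. The labels do not say what the number might mark. Both replicates 1 lay below the 3 others for 29 of 44 collagens (26.7% of all genes) and above them for 1 (24.9%). The ratio of a replicate 1 to the others of its genotype followed the GC content of the transcripts, which ran from 45.9% in Col25a1 to 62.9% in Col11a2. For Bahd1-WT replicate 1 over the mean of replicates 2 and 3, Pearson's r with GC content was -0.887 on the log2 scale across the 44 genes, which are not independent replicates and share the libraries. For Bahd1-KO replicate 1 over replicate 2 it was -0.856, and over 14489 protein-coding genes the values were -0.769 and -0.759. The collagens thus lay along the trend of all genes. With GC content of the coding sequence alone r was -0.676 and -0.725, and with the share of glycine codons it was -0.114 and -0.102.

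By GC class, the 15 collagens at 58% GC or more had a median ratio of 0.473 for Bahd1-WT and 0.474 for Bahd1-KO, and all 15 were below the 3 other embryos. The 15 collagens between 52 and 58% had 0.705 and 0.697, and the 14 under 52% had 1.07 and 1.04. Genes of the same classes among all protein-coding genes had medians of 0.544 and 0.445, 0.719 and 0.693, and 1.14 and 1.15. Of the 4 chains whose repeat is shown, Col2a1, with 62.2% GC over its transcripts, was 0.397 and 0.440 times the others in the replicates 1 of Bahd1-WT and Bahd1-KO, and Col4a2, with 60.6%, was 0.473 and 0.440 times. Col11a1, with 48%, was 1.00 and 1.12 times the others, and Col25a1, with 45.9%, was 1.44 and 1.16 times. Collagens as a class are GC-rich, with a median of 55.1% against 48.6% over all genes tested, and the SDs given above for the Bahd1-WT embryos contain this difference. Between genotypes, Bahd1-KO replicate 1 over Bahd1-WT replicate 1 had a median of 0.973 over the 44 genes (24 of 44 below 1). Bahd1-KO replicate 2 over the mean of Bahd1-WT replicates 2 and 3 had a median of 1.00 (21 below 1). These medians hid a fall with GC content. From the lowest to the highest GC class they were 1.14, 0.971 and 0.900 for the first ratio and 1.07, 0.950 and 0.906 for the second. Pearson's r with GC content was -0.262 and -0.276 over the collagens, and -0.488 and -0.399 over the 14489 protein-coding genes.

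**Figure D5:**
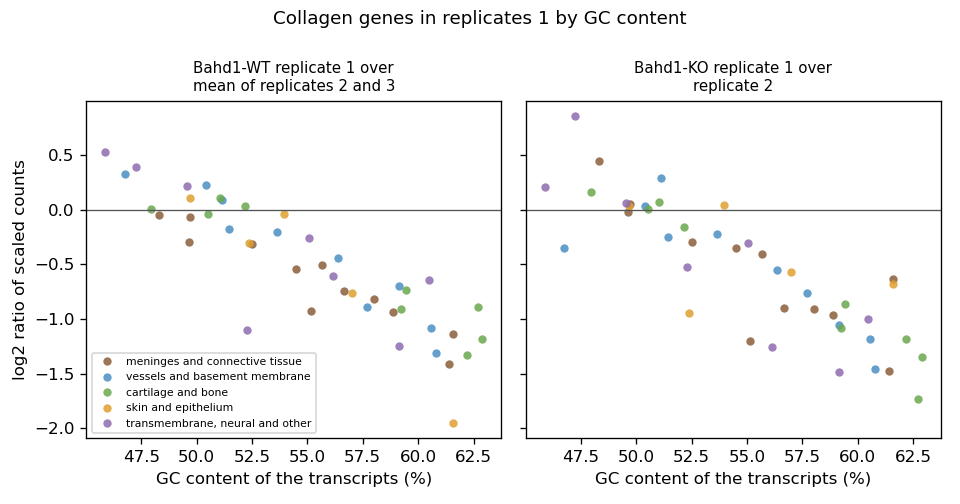
The log2 ratio of replicate 1 to the other embryos of its genotype (Bahd1-KO replicate 3 left out) against the GC content of the transcripts in percent, for the 44 collagen genes, coloured by tissue type. The ratios fall with GC content in both genotypes, with Pearson's r of -0.887 for Bahd1-WT and -0.856 for Bahd1-KO.

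Of 67 genes that modify, cleave, cross-link, bind or break down collagen, 0 passed the adjusted threshold in edgeR. At an unadjusted p under 0.05 there were 4 (Lox, Loxl2, Postn and Mmp8), all higher in Bahd1-KO (background 4.51%). DESeq2 also called 0 but gave no adjusted p for 5. It had 12 at an unadjusted p under 0.05 (background 4.97% higher and 0.150% lower). With all embryos 49 of the 67 were above 0 (53.8% of all genes), with a median log2 fold change of 0.51 against 0.06 over all genes. Without Bahd1-KO replicate 3 there were 23 (49.2% of all genes), with a median of -0.10 against -0.01. The 53.8% is also the background for the counts above 0 in the single lists below. Of the 67, 50 lay above every other embryo in Bahd1-KO replicate 3 (background 38.1%) and 11 below (36.0%). Scaled by total counts these were 37 (background 25.9%) and 17 (52.7%).

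Among the enzymes that cross-link collagen, Lox, a lysyl oxidase, had 32.2, 22.6 and 724 CPM in knockout and 24.0, 19.1 and 24.6 in wild-type embryos. Its relative Loxl2 had 9.86, 9.41 and 77.7 in knockout and 7.75, 7.79 and 7.80 in wild-type embryos. Loxl2 was 1 of 6 genes among the 67 that did not overlap between genotypes, all higher in Bahd1-KO (background 4.47%, and 2.24% lower). Its log2 fold change without Bahd1-KO replicate 3 was 0.30 ± 0.23, with an edgeR adjusted p of 0.981. The lowest of this list, the proteases Tll2 and Adamts3, had log2 fold changes of -0.59 ± 0.76 and -0.43 ± 0.40. Of the 13 genes of this list 10 were above 0.

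Among the 12 collagen-binding matrix proteins 11 were above 0, led by the matricellular protein Postn at 2.37 ± 0.90 and the small proteoglycan Ogn at 2.04 ± 0.88, with Hspg2 (perlecan) at -0.01 ± 0.69 and Tnxb at 0.17 ± 0.68 the lowest. Postn was another of the 6 pathway genes without overlap between genotypes, against 4.47% of all genes that were higher in Bahd1-KO without overlap. It had 62.9, 46.9 and 513 CPM in knockout and 45.5, 38.4 and 36.4 in wild-type embryos. Among the 20 genes for chain modification and folding 13 were above 0, from P3h2 (prolyl 3-hydroxylase) at 1.97 ± 0.96 and Plod2 (lysyl hydroxylase) at 1.28 ± 0.57 down to P3h3 at -0.51 ± 0.38 and Plod3 at -0.52 ± 0.41.

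Of the 10 collagen receptors 6 were above 0, near the background of 53.8%. The integrin chains Itga2 and Itga1 had log2 fold changes of 1.88 ± 0.84 and 1.47 ± 0.70, and the lowest were Ddr1, a receptor tyrosine kinase, at -0.79 ± 0.55 and Adgrg1, an adhesion receptor of neural progenitors that binds type III collagen at the pial surface, at -0.96 ± 0.62. Adgrg1 had 77.7, 141 and 21.3 CPM in knockout and 105, 174 and 188 in wild-type embryos. In Bahd1-KO replicate 3 its ligand Col3a1 was thus 8.17 times the other embryos while Adgrg1 was 0.155 times. Of the 12 genes for collagen breakdown and its inhibitors 9 were above 0, among those with a mean of at least 1 CPM from Timp3 at 1.76 ± 0.76 and the gelatinase Mmp2 at 1.57 ± 0.81 to Ctsk at -0.18 ± 0.33 and Mmp9 at -0.62 ± 0.93. The collagenase Mmp8, under that mean, had 3.43 ± 1.28 with all embryos. Without Bahd1-KO replicate 3 the log2 fold changes of the 20 named genes over it lay between -0.69 (Hspg2) and 0.44 (Postn).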

How the data were processed

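The deposited table held raw counts for each gene in a column per embryo. By their methods and the labels, the authors prepared poly(A) libraries, trimmed reads with cutadapt 1.11, aligned them to GRCm38 and counted exonic reads by strand with featureCounts 1.4.6-p3, merging technical runs. Both STAR 2.5.0a and TopHat2 are named, and which made this table is not given in the sources used here. The extraction removed short RNA. Groups came from sample titles.

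Genes whose counts summed to at least 10 were tested with edgeR 4.0.16 (R 4.3.3; quasi-likelihood, TMM factors, genotype as the single term, Benjamini-Hochberg over all genes, threshold 0.05). The standard errors given with edgeR log2 fold changes were derived, as the absolute estimate divided by the square root of the F statistic. DESeq2 1.42.0 and voom of limma 3.58.1 were alternatives. The test was first run on simulated counts with the same dispersion for all genes and no deviating library. That run does not tell how the test performs on these libraries. Levels are CPM on TMM-scaled totals, per kb of merged exons. GENCODE M21 (GRCm38) matched 53706 of 53801 genes and RefSeq promoter windows 35 of 44 collagens.

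The collagen genes, tissue types and lists were chosen with earlier results of these data known. Genes given in every embryo were Bahd1, the 3 most abundant collagens of each type, those without overlap, the 5 highest and 5 lowest ratios in Bahd1-KO replicate 3, and partner chains. Pathway genes were the 2 highest and 2 lowest of each list with a mean of at least 1 CPM. Snorc had no row, and Bglap, Bglap2, Mepe and Rmrp were under the minimum.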

Additional observations from a re-analysis of the deposited data

How the results depend on the processing

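All 20 alternatives called 0 collagen genes and 0 pathway genes, with 0 to 17 collagens at an unadjusted p under 0.05. The 4 collagens at that level became 17 without Bahd1-KO replicate 1, 9 without replicate 2 and 0 without Bahd1-KO replicate 3 or without any single Bahd1-WT replicate. The share of all genes at that level was taken only for the main fit, DESeq2 and the fit without Bahd1-KO replicate 3. The counts of the other fits are thus a description and do not set the collagens apart from other genes. The median log2 fold change of the collagens was 0.69 and moved to 0.32 with total counts, which took the median of all genes from 0.06 to -0.11 (upper-quartile factors gave 0.85 and 0.17), -0.17 with voom and embryo quality weights, -0.067 with DESeq2 without Bahd1-KO replicate 3, and between -0.061 (without Bahd1-KO replicate 3) and 0.93 (without Bahd1-KO replicate 1) when 1 embryo was left out, since the estimate rested on Bahd1-KO replicate 3. Uncalled estimates changed sign for 25 of 44 collagens without that embryo, 21 under voom, 7 with total counts and at most 5 when another embryo was left out. Bahd1 kept its direction in each fit that tested it, with log2 fold changes of -8.78 to -8.01 when 1 embryo was left out, but missed the edgeR threshold without any single embryo other than Bahd1-KO replicate 3 and, at -8.41 with an adjusted p of 0.0542, when ribosomal RNA, small non-coding RNA and mitochondrial genes were dropped. The minimum of 10 counts in every embryo removed Bahd1 and Col10a1.

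Whether the replicate numbers pair the embryos was not settled. Deviations of same-numbered embryos from the mean of their genotype correlated at 0.21, 0.32 and -0.11. Those of Bahd1-KO replicate 2 and Bahd1-WT replicate 3 correlated at 0.35. The Bahd1-KO mean included replicate 3, so these values cannot decide it. With the replicate block 0 collagens were called, the median was 0.42, and Bahd1 at -8.49 lost its call (adjusted p = 0.229). With the block and without Bahd1-KO replicate 3 the median was -0.011. Bahd1 was then called, at -8.49 ± 0.28 (SE, edgeR adjusted p = 1.19e-07). Levels under about 100 counts, such as Col10a1, Col17a1 and Col20a1, are limited by depth.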
